A study of Mus musculus with 6 samples.

Results

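The cytosolic ribosomal protein genes encode the proteins of the large (Rpl) and small (Rps) subunits of the ribosome outside mitochondria. They were taken as every protein-coding gene of the mm10 gene table whose symbol is Rpl or Rps with a number and an optional letter or l ending, plus Rplp0, Rplp1, Rplp2 and Rpsa. The rule gave 82 genes of 21887, with 51 of the large and 31 of the small subunit. Rps6k kinase genes, mitochondrial ribosomal protein genes and pseudogenes were left out. The symbol rule also left out Rps3a1, Rpl7l1 and Rpl22l1, whose names carry a further number.

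Chromatin accessibility was measured by ATAC-seq, an assay that maps open DNA by where the Tn5 transposase can insert sequencing adapters, in B220+CD93+ immature B cells from mouse spleen. All 6 libraries came from the Tcrd-GDL strain, in which the receptor for diphtheria toxin is placed on γδ T cells. The 3 DTx libraries came from mice given 2 intraperitoneal doses of diphtheria toxin, 15 ng per gram of body weight each and 48 h apart, with analysis on day 8 after the first dose. The 3 untreated libraries came from mice of the same strain. The labels do not give the age of the mice or whether each library is a different mouse. The p-values below therefore reflect only how far these samples vary, and that variation may be technical. The toxin acts on any cell with the receptor, and the peak lists do not show how many γδ T cells were removed.

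Every ribosome needs its proteins in equal amounts, and their genes are among the most highly transcribed in dividing and growing cells. Their promoters are short and compact, and the mRNAs of most of them begin with a cytosine followed by a run of pyrimidines, the TOP motif, through which mTOR signalling controls their translation. Immature B cells are recent arrivals in the spleen that have finished V(D)J recombination of the antigen receptor.

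The lists held 44661 to 60811 peaks in the DTx libraries and 36760 to 56503 in the untreated libraries, and read totals were not used here because the sources give none. DTx replicate 1 and untreated replicate 3 came with a summit column, and the other 4 lists did not, so that each group held 1 list with summits and 2 without. The 2 layouts differed in more than this column. The lowest −log10 q of a peak was 1.3 in DTx replicate 1 and 1.33 in untreated replicate 3, against 1.0 to 1.02 in the other lists. Fold enrichment, a ratio given with each peak, differed too. At Rpl27, for example, it was 24.7 and 22.9 in the lists with summits and 9.14 to 10.5 in those without. Among markers of B cells, 7 of 8 had a peak close to a gene end (within 1 kb) in all 6 libraries. Of 6 T cell markers, 4 had no such peak in any library, among them Trdc, the constant gene of the δ chain. None of 4 myeloid and 3 natural killer markers and 2 of 4 erythroid markers had one in all 6 libraries.

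For each gene, the strongest peak that lay no more than 1 kb from one of its ends is called the gene-end peak. Its strength is given as a within-list percentile: the share of peaks of the same list with a lower −log10 q, the authors' own significance value. A peak at the 90th percentile is stronger than 90% of the peaks of its library. The length of a peak in bp is the other measure.

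The stretches below show the annotated starts of 9 members, chosen as the 4 strongest and the 2 weakest members called in all 6 libraries that have a start in the RefSeq promoter table (build GRCm38.p6), and 3 that lacked a gene-end peak in every library. Each runs from 100 bases before the start to 20 bases after it, 5′ to 3′ on the strand of the gene. Capitals mark the ETS core CCGGAAG on either strand, and the run of C and T that begins at the first transcribed base.
Rpl13a, chr7:45128726-45128845, minus strand: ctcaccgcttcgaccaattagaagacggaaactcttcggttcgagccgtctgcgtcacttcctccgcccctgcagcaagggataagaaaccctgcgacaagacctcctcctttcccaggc
Rpl27, chr11:101442145-101442264, plus strand: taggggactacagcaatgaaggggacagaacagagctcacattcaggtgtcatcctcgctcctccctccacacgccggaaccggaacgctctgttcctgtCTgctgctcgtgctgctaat
Rpl41, chr10:128549149-128549268, minus strand: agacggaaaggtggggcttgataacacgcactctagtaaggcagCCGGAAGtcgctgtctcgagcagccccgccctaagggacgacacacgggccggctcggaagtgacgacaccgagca
Rplp0, chr5:115559367-115559486, plus strand: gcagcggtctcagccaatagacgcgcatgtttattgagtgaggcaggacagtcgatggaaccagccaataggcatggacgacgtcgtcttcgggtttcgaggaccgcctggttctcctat
Rpl38, chr11:114668480-114668599, plus strand: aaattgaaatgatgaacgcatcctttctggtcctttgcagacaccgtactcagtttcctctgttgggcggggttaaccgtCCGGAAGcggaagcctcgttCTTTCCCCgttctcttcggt
Rpl35, chr2:39005112-39005231, minus strand: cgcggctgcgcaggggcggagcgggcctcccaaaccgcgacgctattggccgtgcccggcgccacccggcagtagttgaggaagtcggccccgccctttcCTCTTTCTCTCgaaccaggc
Rps2, chr17:24719963-24720082, plus strand: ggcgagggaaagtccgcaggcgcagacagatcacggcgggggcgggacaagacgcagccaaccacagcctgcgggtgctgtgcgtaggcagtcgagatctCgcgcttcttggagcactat
Rpl10l, chr12:66284382-66284501, minus strand: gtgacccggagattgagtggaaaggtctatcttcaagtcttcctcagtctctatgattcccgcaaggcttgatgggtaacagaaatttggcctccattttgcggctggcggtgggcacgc
Rpl39l, chr16:10170128-10170247, plus strand: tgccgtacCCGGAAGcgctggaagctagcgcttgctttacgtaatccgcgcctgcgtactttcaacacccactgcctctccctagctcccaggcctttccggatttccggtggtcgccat

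The first 4 stretches, of the strongest members, share no capitalised feature: only Rpl41 holds the ETS core, and only Rpl27 begins with a C, followed by a single further pyrimidine. Both of the weakest members by gene-end peak begin with a long pyrimidine run, of 8 bases in Rpl38 and 11 in Rpl35. Long runs were not confined to weak members. Rps27 (7 bases) and Rpl28 (8 bases) averaged percentiles of 97.4 and 97.0, while Rps10 (10 bases) averaged 78.2. Rps2 begins with a lone C, and Rpl10l and Rpl39l begin with a G.

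Nearly every ribosomal protein gene had open chromatin at a gene end in these B cells. A gene-end peak was present in all 6 libraries at 75 of 82 members (91.5%), against 49.2% of all protein-coding genes (10775 of 21887). By subunit, these were 46 of 51 large subunit genes and 29 of 31 small subunit genes. Per library, 76, 76 and 77 members were called in the DTx libraries and 75, 77 and 77 in the untreated libraries. The group means were 76.3 ± 0.577 in DTx and 76.3 ± 1.15 in untreated libraries (SD, n = 3 each), which is no difference beyond the spread. Over all genes, 51.9%, 56.1% and 56.9% were called in the DTx and 51.1%, 53.3% and 57.0% in the untreated libraries. Between libraries, the share called thus ran from 51.1% to 57.0% over all genes and from 91.5% to 93.9% over members.

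These peaks were also strong ones. The median percentile of the members called was 89.8, 93.3 and 92.6 in DTx replicates 1 to 3 and 89.7, 90.1 and 91.8 in untreated replicates 1 to 3. For the 10775 genes called in all 6 libraries, the medians were 82.6, 85.9 and 86.0 in DTx and 79.4, 81.7 and 87.8 in untreated libraries. The members' median was thus above that of all genes in each of the 6 libraries. Of the 75 members called in all 6, 41 (54.7%) had a mean percentile of 90 or more, against 33.7% of all such genes. In every one of the 6 libraries, 32 members reached the 90th percentile and 74 the 50th.

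**Figure D1:**
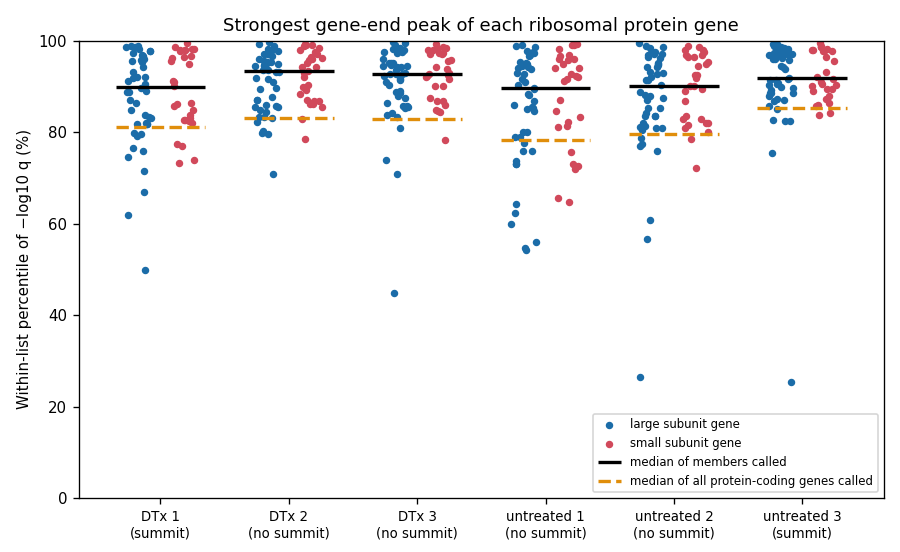
Within-list percentile of −log10 q (y axis, %) of the strongest gene-end peak of each ribosomal protein gene called, by library (x axis, DTx left). Points are genes, black lines the median of the members called (89.8 to 93.3 in DTx and 89.7 to 91.8 in untreated libraries) and dashed lines the median of all protein-coding genes called, which lies lower in each library.

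To set the genes on a scale that list length does not move, each was ranked from 0 to 100 among the 10775 genes called in all 6 libraries. The median member ranked at 69.6, with 65.8 for the large and 72.0 for the small subunit, against 50.4 for all genes. Related gene groups fell on both sides. Ribosome biogenesis genes (33 of 34 called in all 6 libraries) ranked at a median of 75.4, and translation factors and ribosomal fusion genes (19 of 19) at 72.1. Mitochondrial ribosomal protein genes (74 of 78) ranked at 50.9, near the middle of all genes, and the regulators of ribosomal protein genes and mRNAs (14 of 16) at 49.5. The cytosolic and mitochondrial ribosomal protein genes had peaks about equally often, and the median rank was higher for the cytosolic ones. No test was made of these medians.

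Several genes outside the rule make ribosomal proteins too. Rps3a1, a small subunit gene, averaged a percentile of 95.1 over the 6 libraries. Fau, which makes a small subunit protein fused to a ubiquitin-like protein, averaged 81.7. The paralogs Rpl22l1 and Rpl7l1 averaged 94.5 and 85.1. Rack1, a scaffold on the small subunit, averaged 93.6, within the range of the members.

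The strongest gene-end peaks of the family were all near the top of their lists. Rpl13a, which in human cells also silences translation during inflammation, stood at percentiles of 97.2, 99.7 and 99.7 in DTx and 99.0, 99.4 and 98.4 in untreated libraries. Rpl27 stood at 98.5, 99.2 and 99.4 in DTx and 97.5, 98.8 and 99.2 in untreated libraries. For these genes the groups overlapped and every library was in the top few percent. Rps27a, which makes a small subunit protein fused to ubiquitin, averaged 98.6, and Rpl41, which makes a very short basic peptide of the large subunit, also averaged 98.6. Rplp0, the base of the ribosomal stalk, averaged 98.1.

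The stalk recruits elongation factors to the ribosome, and all of its genes had strong peaks. Rplp0 stood at 98.2, 98.1 and 97.7 in DTx and 97.2, 98.5 and 98.6 in untreated libraries. Rplp1 stood at 91.8, 95.0 and 94.3 in DTx and 88.1, 93.1 and 97.3 in untreated libraries, and Rplp2 at 93.2, 97.0 and 98.3 in DTx and 95.4, 97.4 and 98.0 in untreated libraries. Within the trio, Rplp1 was the weakest on average at 93.3, and the groups overlapped at each gene.

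Rps6, the small subunit protein phosphorylated by S6 kinases downstream of mTOR, stood at 97.9, 92.1 and 92.2 in DTx and 92.1, 89.5 and 98.0 in untreated libraries. Its highest values came from the lists with a summit column, 1 in each group. Rps19, the gene most often mutated in Diamond-Blackfan anaemia in humans, stood at 86.2, 95.9 and 97.3 in DTx and 94.8, 96.9 and 90.6 in untreated libraries. Here the lists with a summit column gave the lowest value of each group. Rpsa, a small subunit protein also known as a laminin receptor, varied less, at 94.8, 94.3 and 92.6 in DTx and 92.3, 92.5 and 96.4 in untreated libraries.

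Rpl5 and Rpl11 form a particle with the smallest ribosomal RNA that restrains Mdm2 when ribosome assembly fails. Rpl5 stood at 86.4, 84.8 and 83.7 in DTx and 80.1, 77.4 and 89.6 in untreated libraries. Rpl11 stood at 87.1, 89.7 and 93.0 in DTx and 84.6, 92.1 and 93.9 in untreated libraries. Both were below the strongest members in every library, and the groups overlapped.

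The weakest member called in all 6 libraries was Rpl38, a large subunit protein that in mouse embryos is needed to translate a set of Hox mRNAs. It stood at 61.9, 70.8 and 70.9 in DTx and 56.0, 56.6 and 75.4 in untreated libraries. Rpl35 stood at 79.2, 79.9 and 73.8 in DTx and 78.9, 60.7 and 82.5 in untreated libraries. These 2 genes, whose starts are printed above, were weak for the family and yet above the 50th percentile in all libraries. Next came Rpl12 at a mean of 76.4, Rpl23 at 77.0, Rps10 at 78.2 and Rpl8 at 78.6. Rpl12 was lowest in untreated replicate 1, at 54.7, against 78.8 and 82.6 in the other untreated and 74.5, 82.2 and 85.5 in DTx libraries. Untreated replicate 1 had the shortest list, and it also gave the lowest value of Rpl23, at 60.0, and of Rpl13, at 54.2.

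**Figure D2:**
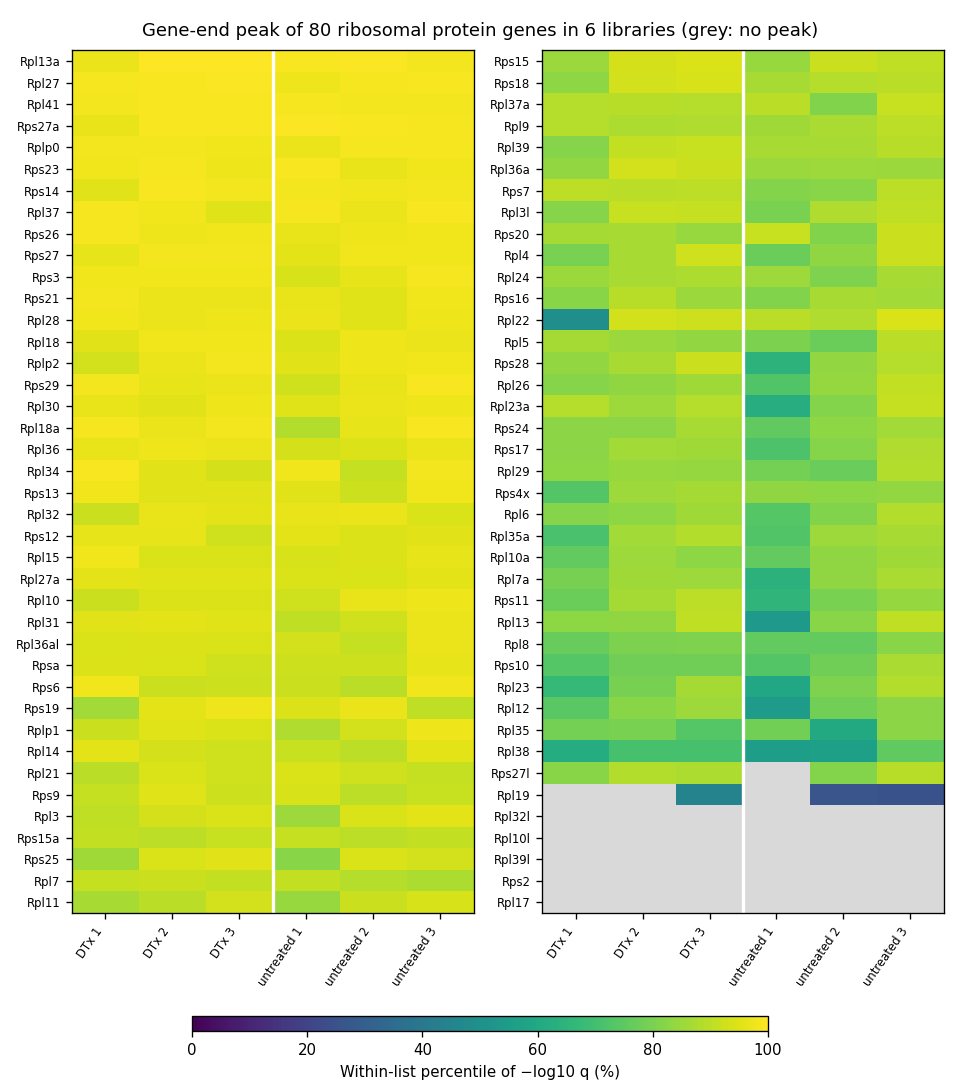
Each row is one of 80 of the 82 genes, ordered by the number of libraries called and then by mean percentile, and each column a library, DTx left of the white line. Colour gives the within-list percentile of −log10 q from 0 to 100, and grey marks the genes without a gene-end peak: 5 genes are grey in all 6 libraries, Rpl19 in 3 and Rps27l in 1.

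The length of the peak set the members apart less than its strength did. Their gene-end peaks had a median length of 870 bp, against 879 bp over all genes called in all 6 libraries. The quartiles of the members were 736 and 970 bp, and those of all genes 702 and 1110 bp. Across the 75 members, mean length and mean percentile had a Spearman rho of 0.00694, and across all 10775 genes 0.0578, given as descriptions since all points come from the same 6 libraries. A long peak was thus no sign of a strong one among these genes.

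The longest peaks lay at Rpl7, Rpl38 and Rps20. At Rpl7, a large subunit gene that shares its peak with an end of Rdh10, the lengths were 1286, 1783 and 1841 bp in DTx and 1693, 1741 and 2229 bp in untreated libraries. The Rpl38 peak measured 1315, 1444 and 1836 bp in DTx and 1048, 1369 and 1836 bp in untreated libraries. Rpl38 was therefore both the weakest member and the second longest, with a mean of 1470 bp.

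The shortest peaks lay at Rpl18, Rps15 and Rpl13a. Rpl18 measured 519, 508 and 542 bp in DTx and 389, 498 and 618 bp in untreated libraries. Rps15, of the small subunit, measured 472, 515 and 553 bp in DTx and 460, 483 and 650 bp in untreated libraries. Rpl13a measured 454, 492 and 511 bp in DTx and 474, 504 and 792 bp in untreated libraries, so that one of the strongest peaks of the family was also among its shortest. Untreated replicate 3 gave the longest peak of the 6 at each of these 3 genes.

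**Figure D3:**
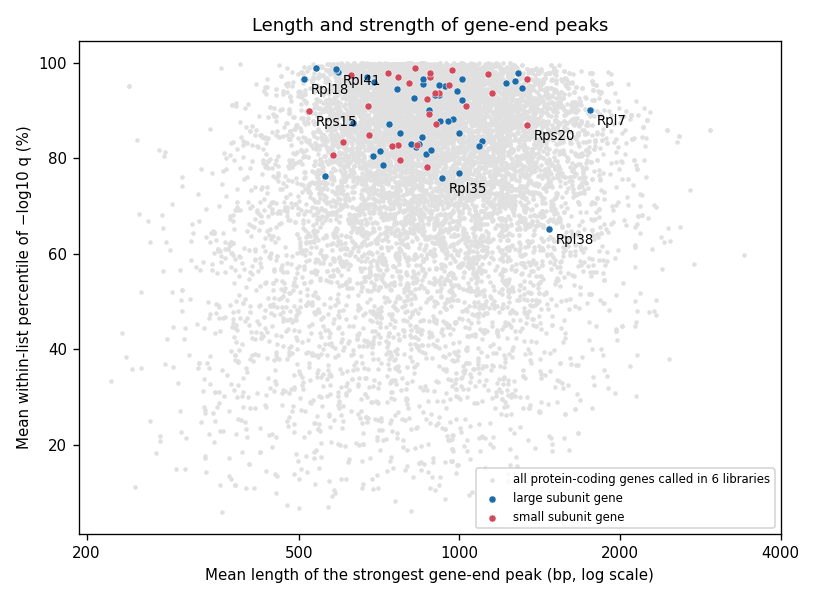
Mean length (x axis, bp, log scale) against mean within-list percentile of −log10 q (y axis, %) of the strongest gene-end peak over 6 libraries. Grey points are the 10775 protein-coding genes called in all 6 libraries, and coloured points the 75 ribosomal protein genes among them, which lie mostly above the 70th percentile at all lengths from 512 bp (Rpl18) to 1760 bp (Rpl7).

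The longest and the shortest peaks of the members came mostly from the same libraries. Of the 75 members, 54 were longest in untreated replicate 3, and 62 were shortest in untreated replicate 1 or DTx replicate 1. This held for the lists in general. Over all genes called in all 6 libraries, the median length was highest in untreated replicate 3, at 1030 bp. It was lowest in DTx replicate 1, at 736 bp, and untreated replicate 1, at 772 bp. The median ratio of the longest to the shortest peak of a gene was 1.42 for members and 1.55 for all genes. The SD of the percentile over the 6 libraries had a median of 3.03 points for members and 4.80 for all genes. Strong peaks have less room to vary on a percentile scale, and the part of this in the lower spread was not tested.

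The gene table gives the outer limits of all transcripts of a gene, and for some members these lie far from the start that RefSeq annotates for the main transcripts. The starts of the promoter table, which holds 62 of the 82 members, were therefore set against the peaks. This measure was added after the gene-end calls were seen. A peak covered an annotated start in all 6 libraries at 58 of 62 members (93.5%), against 46.3% of all genes with an entry (8105 of 17492). The same 58 were covered in each single library, so that at no member was the start under a peak in some libraries and not in others. All 23 small subunit genes with an entry were among them, and 35 of 39 large subunit genes.

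This split followed the names of the genes. At all 56 members without an l ending that have an entry, the start was covered in each of the 6 libraries. Of the 6 with an l ending, which are paralogs of other members, Rpl36al and Rps27l were covered in all 6 libraries, and Rpl3l, Rpl10l, Rpl32l and Rpl39l had none in any. Rpl3l is known as the form of Rpl3 in heart and skeletal muscle, and Rpl10l and Rpl39l as forms made in male germ cells of the mouse. At Rpl10l the nearest peak of any kind was 728 to 1110 kb away in DTx and 712 to 1020 kb away in untreated libraries. At Rpl39l it was 97.5 to 183 kb away in DTx and 97.4 to 224 kb away in untreated libraries. The nearest peak to Rpl32l was 2.72 to 2.78 kb away in DTx and 2.74 to 3.10 kb away in untreated libraries. The printed stretch of Rpl39l holds an ETS core, and no peak lay over it.

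Rpl3l counted as called in all 6 libraries by its gene end, at a mean percentile of 87.2, and this peak was not at its start. It lay outside the gene, at the far end from the start, beside an end of Msrb1, which encodes a methionine sulfoxide reductase. The distance from the gene was 0.125 to 0.131 kb in DTx and 0.004 to 0.171 kb in untreated libraries.

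The opposite held for 3 genes with weak or missing gene-end peaks. Rps2, which lines the mRNA entry path of the small subunit, was called at a gene end in no library, and its annotated start (chr17:24720063) lies 1864 bp from the nearer end of the gene (chr17:24718121-24721927). A peak covered that start, with percentiles of 89.8, 94.1 and 95.0 in DTx and 91.7, 92.2 and 93.8 in untreated libraries. It had lengths of 661, 709 and 745 bp in DTx and 643, 688 and 905 bp in untreated libraries. By its start, Rps2 thus stood close to or above the median gene-end percentile of the members in every library.

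Rpl19, a large subunit gene on chromosome 11, was called at a gene end in 1 DTx library and 2 untreated libraries, with a percentile of 44.8 in DTx replicate 3 and of 26.4 and 25.3 in untreated replicates 2 and 3. Its annotated start (chr11:98026710) is 3783 bp from the nearer gene end and was under another peak in all 6 libraries. This peak stood at 61.8, 76.6 and 82.4 in DTx and 69.5, 73.1 and 80.6 in untreated libraries. The gene-end calls did not mark a single site either: in DTx replicate 3 and untreated replicate 2 the peak lay past the downstream end of the gene, and in untreated replicate 3 at the opposite end. The start itself lay under a peak in both groups.

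Rps27l, a paralog of Rps27 that responds to p53, was called in all 3 DTx libraries and in 2 untreated ones, and here the limit of 1 kb decided. The same peak began 967, 907 and 864 bp inside the gene end in DTx libraries and 1061, 981 and 905 bp inside it in untreated libraries. Over the annotated start it stood at 82.4, 88.3 and 87.5 in DTx and 77.1, 81.6 and 89.4 in untreated libraries.

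Rpl17, a large subunit gene that has no entry among the starts, had a peak inside the gene in all 6 libraries. It lay 1051 to 1204 bp from the nearer gene end in DTx and 1203 to 1224 bp in untreated libraries, just past the limit. Its percentile was 87.5, 90.3 and 90.9 in DTx and 88.0, 82.9 and 85.2 in untreated libraries. Of the 20 members without an entry, Rpl17 was the one with no gene-end peak, and the other 19 had one in all 6 libraries.

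At 52 of the 62 members with an entry, the strongest gene-end peak was the peak over the start in every library. It differed, or one of them was missing, in at least 1 library at 7 members: Rps2, Rpl19, Rps27l, Rpl3l, Rpl18, Rpl4 and Rpl22. The remaining 3, Rpl10l, Rpl32l and Rpl39l, had neither. At Rpl18 the strong gene-end peak (mean percentile 96.7) lay upstream of the annotated start, across the outer limit of the gene (chr7:45715467). The peak over the start stood at 63.6, 79.8 and 74.7 in DTx and 73.0, 71.2 and 76.0 in untreated libraries. Rpl18 is thus one of the weaker members by its start. At Rpl4 the strongest gene-end peak lay past the far end of the gene, over an end of Snapc5, in 5 libraries, and the peak over the start averaged 79.3.

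Around the start, the median reach of the members' peaks was close to that at genes in general, and fewer members had a very long one. Over the 58 members covered in all 6 libraries, a peak reached a median of 415 bp upstream and 420 bp downstream of the start, against 406 and 430 bp over 7779 genes covered at their first listed start. The 90th percentile of the reach was 644 bp upstream and 632 bp downstream for members, against 773 and 856 bp for those genes. In the lists that give a summit, its median offset was −44.5 bp in DTx replicate 1 and −43.5 bp in untreated replicate 3, that is, upstream of the start, against −47.0 and −40.0 bp over all genes. The summit was within 100 bp of the start in both lists at 42 members (72.4%), against 59.3% of genes. The exceptions included Rps26, with the summit at −326 bp in untreated replicate 3, and Rpl19, with it 252 bp downstream in DTx replicate 1 and 185 bp downstream in untreated replicate 3. The longest mean reach downstream was at Rpl38, where the peak extended 985 bp past the start, and the longest upstream was at Rpl10, where it extended 882 bp before it. At Rps4x, in contrast, 112 bp lay upstream and 632 bp downstream.

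**Figure D4:**
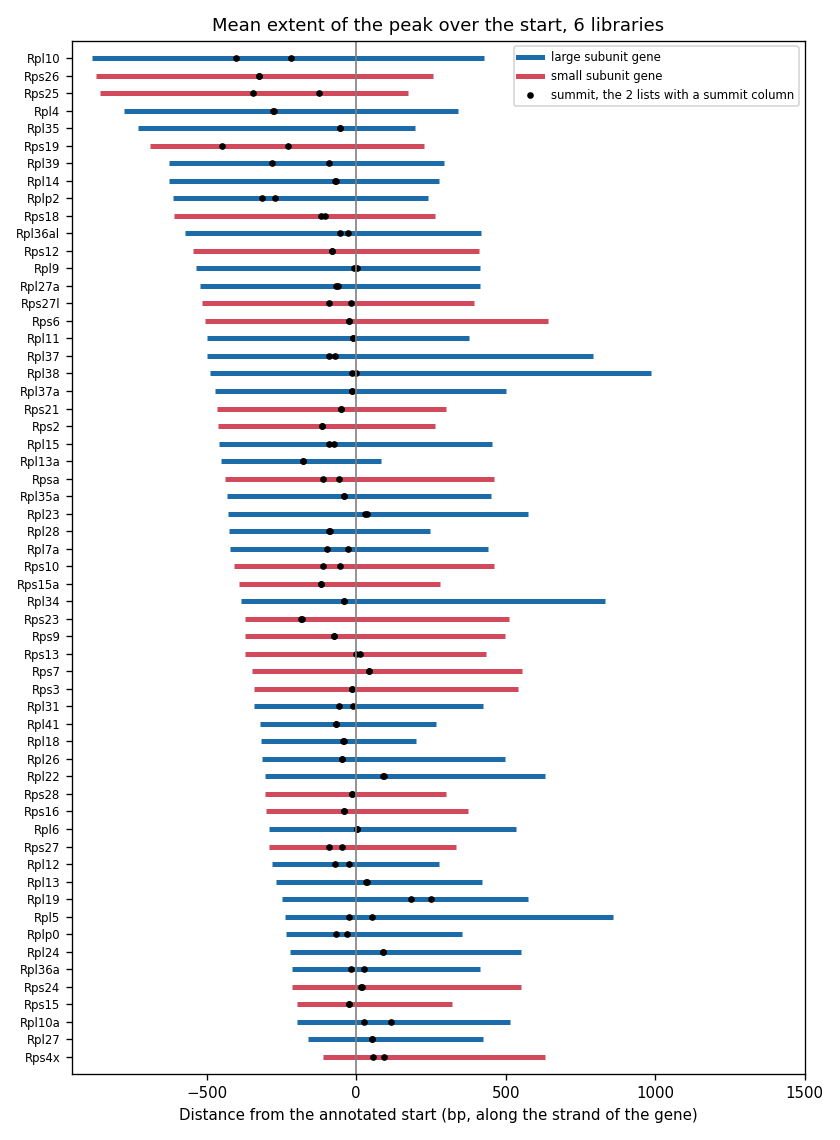
Bars give the mean extent over 6 libraries of the peak that covers the annotated start at 58 ribosomal protein genes, in bp along the strand of the gene, with upstream to the left of 0. Black points are the summits in DTx replicate 1 and untreated replicate 3, of which both lie within 100 bp of the start at 42 genes.

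The promoters, taken as 250 bases before to 50 after the start, differed from those of other genes in some short motifs and not in others. The ETS core CCGGAAG, bound by factors such as GABPA, was present on either strand in 24 of 62 members (38.7%), against 11.9% of all 17492 genes and 19.9% of the 8759 genes with an entry and a gene-end peak in all 6 libraries. The core ATGGCG of YY1 was in 27.4% of members, 11.2% of all genes and 16.9% of those with peaks. For GGGCGG, the SP and KLF core, the shares were 58.1%, 46.3% and 66.0%, and for CCAAT 32.3%, 39.0% and 40.2%. The E-box CACGTG, which Myc binds, was in 5 members (8.06%), 7.90% of all genes and 10.4% of those with peaks. For the NRF1 core GCATGC the shares were 8.06%, 8.21% and 10.5%. TATAAA was in 9.68% of members, below the 13.3% of all genes and above the 6.84% of those with peaks. None of these motifs contains another, and all were searched on both strands. A match describes the letters and is not a bound site.

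The letters at the start itself differed too. The first transcribed base was C in 32.3% of members, 13.7% of all genes and 14.3% of those with peaks. A C followed by at least 4 more pyrimidines was at the start of 13 members (21.0%), against 2.17% of all genes and 2.17% of those with peaks. CTTTCC or CTTTCT on the sense strand lay within 20 bases of the start in 22.6% of members and 3.55% of all genes. An annotated start can be off by some bases, which affects these counts. With a run of at least 5 pyrimidines that starts with C anywhere within 5 bases of the start, the contrast was smaller. Such a run was in 28 members (45.2%), 18.7% of all genes and 20.2% of those with peaks. The 13 members with the run at the annotated start itself were Rpl14, Rpl15, Rpl28, Rpl32l, Rpl35, Rpl38, Rplp2, Rps6, Rps10, Rps15a, Rps18, Rps21 and Rps27. Among them the longest run, of 13 bases, was at Rpl15, and Rpl32l, whose start had no peak in any of the 6 libraries, had one of 10. Median GC content of the promoters was 57.0% in members, 56.3% in all genes and 61.0% in those with peaks.

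The members are short genes with small RNAs inside. Their median length was 3.17 kb, against 17.2 kb for all protein-coding genes. Small nucleolar RNA genes, whose products guide the modification of ribosomal RNA, lay inside 29 of 82 members (35.4%), 58 in all, against 1.70% of all genes. Rpl4 held 5 of them and Rpl7a and Rpl13a 4 each. At 18 of the 75 members called in all 6 libraries, the peak also lay within 1 kb of an end of another protein-coding gene in every library, among them Zc3h10 at Rpl41 and Pidd1 at Rplp2. At these genes the peak cannot be given to one of the neighbours alone.

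Ribosomal protein pseudogenes, which are mostly retrotransposed copies of the mRNAs, rarely had a gene-end peak. Of 318 in the gene table, 3 (0.943%) were called in all 6 libraries and 298 (93.7%) in none. Over all 10429 pseudogenes the shares were 3.44% and 91.9%. Reads that match several copies equally may be lost or misplaced in such genes, and the sources used here do not say how the authors treated them.

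The design asked whether the accessibility of these B cells differs between mice given toxin and untreated mice. At the ribosomal protein genes no difference passed the test. In limma fits over the 10775 genes called in all 6 libraries, with the list layout as a covariate, 0 genes (0.0%) passed an adjusted p of 0.05 for peak length in either direction, and none of the 75 members did. For the rank of the peak among genes, again 0 genes (0.0%) and 0 members passed. At an unadjusted p under 0.05 there were 117 genes (1.09%) and 1 member for length, and 352 genes (3.27%) and 1 member for rank. With 3 libraries a group and this spread, a small difference was not detectable, and large ones did not pass either. Over all genes, length differences ran from −2.3 to 1.48 on the log2 scale, and the lowest adjusted p in limma was 0.284. Rank differences ran from −33.3 to 44.4 points, with a lowest adjusted p of 0.451 in limma. The lack of calls therefore does not show that differences were absent or small.

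The direction of the members was mixed. In DTx libraries, 35 members had longer peaks and 40 shorter ones than in untreated libraries, with a median log2 difference of −0.0135, against −0.0175 over all genes. The differences ran from −0.48 at Rps20 to 0.36 at Rpl11 on the log2 scale. By rank, 40 members were higher and 35 lower in DTx, with a median difference of 0.136 points, against −0.114 over all genes. The median length of members called was 793, 868 and 914 bp in DTx and 758, 834 and 989 bp in untreated libraries, with means of 858 ± 61.1 bp in DTx and 860 ± 118 bp in untreated libraries (SD, n = 3 each). Within the lists that have no summit column the DTx mean was 891 bp and the untreated mean 796 bp, while in those with summits the values were 793 bp in DTx and 989 bp in untreated. The 2 layouts thus differed in direction, for all genes as well, with 912 bp in DTx and 802 bp in untreated lists without summits, and 736 bp in DTx and 1030 bp in untreated lists with them.

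Rps20, a small subunit protein gene, was the member with an unadjusted p under 0.05 for length. Its peak measured 1079, 1107 and 1128 bp in DTx libraries and 1814, 1812 and 1110 bp in untreated libraries. Untreated replicates 1 and 2 had a much longer peak, and untreated replicate 3 had one of DTx length, so the groups overlapped. The log2 difference was −0.48 ± 0.17 (SE), with an adjusted p of 1.0 in limma.

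Rpl10, a large subunit protein that joins the ribosome late in its assembly, was the member with an unadjusted p under 0.05 for rank. It ranked at 72.8, 77.5 and 76.8 of 100 in DTx and 78.6, 87.7 and 87.7 in untreated libraries. Every DTx value was below every untreated value, and the difference of −8.99 ± 3.75 points (SE) had an adjusted p of 0.996 in limma.

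Groups that did not overlap were no more common among the members than among genes at large. For rank, DTx was higher without overlap at 2 of 75 members, Rps7 and Rpl36, against 3.59% of all genes, and lower at 2, Rps10 and Rpl10, against 3.55%. Rps7 ranked at 67.6, 60.9 and 62.1 in DTx and 53.4, 51.0 and 57.4 in untreated libraries. Rps10 ranked at 35.2, 34.0 and 33.5 in DTx and 40.5, 44.0 and 48.1 in untreated libraries. For length, DTx was shorter without overlap at 1 member, Rps7 (1.49% of all genes), and longer at none (0.872%). The Rps7 peak measured 838, 869 and 871 bp in DTx and 968, 878 and 997 bp in untreated libraries.

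**Figure D5:**
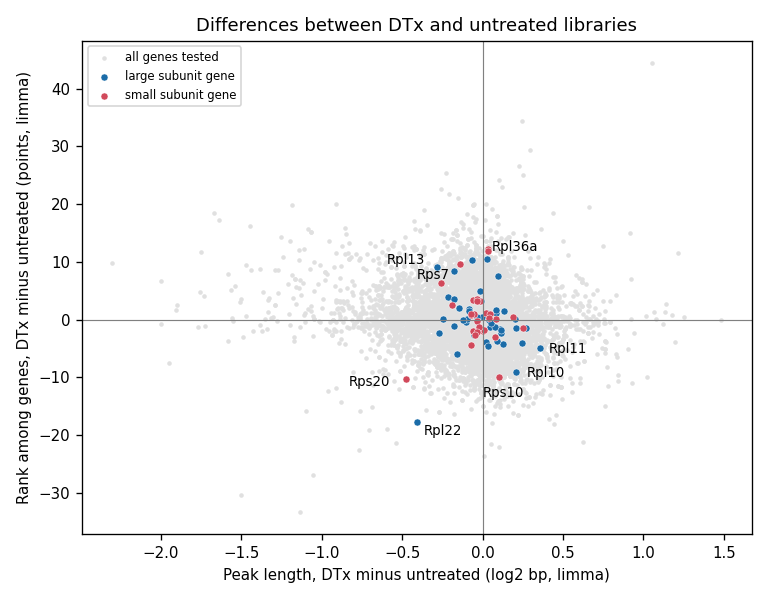
Difference DTx minus untreated in log2 peak length (x axis) and in rank among genes (y axis, points), from limma fits with the list layout as a covariate. Grey points are the 10775 genes tested and coloured points the 75 ribosomal protein genes, which lie within the grey cloud between −0.48 and 0.36 on x and between −17.7 and 12.1 on y.

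The largest rank difference of a member, −17.7 points at Rpl22, came from 1 library. Rpl22 encodes a large subunit protein needed for the development of αβ T cells in the mouse. Its gene-end peak stood at 49.8, 93.2 and 92.2 in DTx and 89.5, 88.0 and 94.4 in untreated libraries, with lengths of 374, 932 and 994 bp in DTx and 909, 900 and 989 bp in untreated libraries. In DTx replicate 1 the peak over the annotated start began beyond the limit of 1 kb, so that a smaller peak at the other gene end was counted. Over the start, the percentiles were 94.5, 93.2 and 92.2 in DTx and 89.5, 88.0 and 94.4 in untreated libraries, and the lengths 911, 932 and 994 bp in DTx and 909, 900 and 989 bp in untreated libraries. The groups overlapped on both measures.

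Rpl11, Rplp1 and Rps14 had the largest length differences towards DTx, at 0.36, 0.27 and 0.25 on the log2 scale. Rpl11 measured 595, 1188 and 1149 bp in DTx and 439, 1094 and 805 bp in untreated libraries. Rplp1 measured 939, 915 and 1136 bp in DTx and 668, 823 and 1013 bp in untreated libraries, and Rps14, which is haploinsufficient in the human 5q deletion syndrome, 703, 615 and 1097 bp in DTx and 592, 595 and 796 bp in untreated libraries. The groups overlapped at all 3 genes. Towards untreated, Rpl13 had a difference of −0.28, with 442, 845 and 612 bp in DTx and 785, 679 and 773 bp in untreated libraries. Each of the 4 had an adjusted p of 1.0 in limma.

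No member was called in all 3 libraries of one group and in none of the other. Over all genes this was the case for 8 genes (0.0366%) in DTx and 1 gene (0.00457%) in untreated libraries. One member, Rps27l, was called in more DTx than untreated libraries, against 5.02% of all genes, and one, Rpl19, in more untreated than DTx libraries, against 2.36%. At the starts of both genes, as described above, a peak was present in all 6 libraries.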

How the data were processed

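Reads were processed by the authors with Trim Galore 0.4.3, Bowtie2 2.3.2, MACS2 2.1.1 and mm10, per the submitters' processing notes. The sources used here give no read totals and do not say whether reads were shifted for the Tn5 cut or duplicates removed, so depth is unknown and the length of a list is the only sign of it. The deposited lists, 1 per library, hold each peak's position and length in bp, pileup signal, fold enrichment as a ratio, and −log10 of p and q. The last pair of headers is damaged in the deposited files, and the columns were identified by order and values. These values are the authors' own. The −log10 q values were turned into percentiles and ranks within each list before libraries were compared. Lengths in bp were compared between lists as given. Mitochondrial peaks (2 per list) were dropped.

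Genes came from the RefSeq table of GRCm38.p6 (21887 protein-coding genes, same build as mm10), and starts and sequences from the RefSeq promoter table, which has no entry for 20 members. A gene was called where at least 1 bp of a peak lay within 1 kb of either gene end. The strongest such peak gave percentile and length. Genes called in all 6 libraries were fitted with limma 3.58.1 (trend, robust; R 4.3.3) with the list layout as a covariate, and p-values were adjusted by Benjamini-Hochberg over all of them. The length fit was tested on simulated data. The simulated shifts were larger than any difference seen at a member, so that test cannot show how smaller differences would be called. Other steps used Python 3.11.15, pandas 2.3.3 and NumPy 2.4.6.

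The members, lists and tests were chosen with earlier results of these data known. Named were members not called in all 6 libraries, members that limma called, the 6 highest and 6 lowest mean percentiles, the 3 longest and 3 shortest peaks, the 3 largest and 3 smallest length differences, and 11 genes by role; Rps7, Rpl36, Rpl10, Rpl4, Rps4x and Rps26 were added after their values were seen. Some genes that fall under this rule are not reported here. Alternatives were equal-length lists, windows of 0 bp and 5 kb, a −log10 q of at least 5, at least 50% of the peak in the window, each library left out, each layout alone, other fits, and, added after seeing the data, annotated starts and centred lengths.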

Additional observations from a re-analysis of the deposited data

How the results depend on the processing

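The calls of members changed little, and the fits below the level of calls changed more. The number of members called in all 6 libraries was 71 with a window of 0 bp, 73 with at least 50% of the peak in the window, 80 with 5 kb and 75 to 76 with each library left out. The difference in members called per library, DTx minus untreated, was 0.0, with −0.667 to 0.333 on leaving out each library. No alternative fit called a member for length or rank. The lowest adjusted p of a member in limma was 0.0863 for length, without untreated replicate 3. For rank it was 0.407, with the replicate block and layout term. At an unadjusted p under 0.05, the former fit held 6 members and 1156 genes, against 1 and 117 in the main fit for length. The latter held 7 members and 898 genes, against 1 and 352 in the main fit for rank. Over all genes the fits called 0 for length throughout, and for rank 3 with the replicate block and layout term, 3 with the longest gene-end peak and 0 otherwise. The labels do not say whether replicate numbers pair the libraries, and they were not treated as pairs. Deviations of same-numbered libraries correlated at 0.11, 0.10 and 0.031 for length and 0.16, 0.26 and −0.17 for rank. Between differently numbered libraries the correlations ran from −0.16 to 0.12 for length. For rank they ran from −0.54 (DTx replicate 1 with untreated replicate 2) to 0.51 (DTx replicate 3 with untreated replicate 2). The reason for these was not tested. Without DTx replicate 1, without untreated replicate 3 or within lists without summits, the members' median log2 length difference was 0.124, against −0.0135 with all 6 libraries, and over all genes 0.146. Within lists with summits no fit could be made, since each group has 1.

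Genes called only in one group rested on few libraries. All genes called in DTx only numbered 8, and 5 with 0 bp, 18 with 5 kb, 5 with a −log10 q of at least 5, 2 by annotated starts, 396 in lists without and 60 in lists with summits, and 13 to 100 on leaving out each library, with 79 without DTx replicate 1 and 100 without untreated replicate 3. Those called in untreated only numbered 1, and 71 with equal-length lists, 6 with 0 bp, 0 with a −log10 q of at least 5, 2 with at least 50% of the peak in the window, 5 by annotated starts, 3 in lists without and 1174 in lists with summits, and 1 to 15 on leaving out each library. Members of either kind numbered 0, except 1 untreated-only member, Rpl19, in lists with summits. The cause was not tested. Of 326 recomputed values of named members, 315 moved by less than 1 SD between libraries. The exceptions included Rpl35, at a mean percentile of 94.8 with a 5 kb window, and Rpl22, at 52.5 with at least 50% of the peak in the window. With 3 libraries a group and no read totals, small differences cannot be resolved, and larger ones can go uncalled.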
